A study of Mus musculus with 7 samples.

Results

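The mitochondrial genome was represented by 16 of the 31531 genes in the deposited table, taken as every gene whose symbol starts with mt-. They are both rRNA genes, *mt-Rnr1* and *mt-Rnr2*, 11 genes of respiratory chain proteins and 3 tRNA genes. The GENCODE annotation of the GRCm39 mouse genome lists 37 genes on the mitochondrial chromosome (chrM), 13 for proteins, 2 for rRNAs and 22 for tRNAs. The remaining 21, which are *mt-Atp8*, *mt-Nd4l* and 19 tRNA genes, were not analysed here.

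The RNA came from fibers of the epaxial muscles, which run along the back, of C57BL/6 fetuses at embryonic day 17.5. There were 4 WT and 3 dyW libraries, each from a different mouse, and the dyW fetuses were homozygous (dyW/dyW) for a disrupted allele of *Lama2*, the gene of the laminin-α2 chain. The dyW mouse is a model of LAMA2-congenital muscular dystrophy in which the allele is altered in every tissue, and the fibers were obtained by digestion with dispase and collagenase and by collection on a strainer, so other cells held there were lysed with them. SMART-seq2 primes cDNA on poly(A) and amplifies it by PCR without molecular identifiers, so limits given for read numbers cover counting error only.

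Mitochondrial DNA is a small circle whose strands are both transcribed as long RNAs that span many genes. The tRNAs that lie between the other genes are cut out, which releases the rRNAs of the mitochondrial ribosome and the mRNAs, and most of these receive short poly(A) tails. The proteins are core subunits of complexes I, III and IV of the respiratory chain and of ATP synthase, and they are joined by many subunits encoded in the nucleus; skeletal muscle draws on this system for much of its ATP.

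Levels are given as normalized counts, that is, reads scaled by a size factor of the library. The reads counted on genes numbered 470804 to 2220813 in the WT libraries and 3663905 to 18297106 in the dyW libraries, and a single read was worth 2.05 to 5.33 normalized counts in WT but 0.0974 to 0.488 in dyW. *Lama2* stood at 90.6, 111, 105 and 107 normalized counts in WT1 to WT4 and at 4.29 and 6.07 in dyW1 and dyW2. It stood at 140 in the third dyW library, above every WT library, and that library is therefore called the library labelled dyW3. The 12 myofiber markers summed to 2948 to 85119 normalized counts in WT and to 8978 in dyW2 and 6987 in the library labelled dyW3, but to 66.0 in dyW1, where 6 of the 12 were at 0 and the skeletal actin gene *Acta1* stood at 4.09. WT1 stood apart by its cartilage markers, which summed to 444795 against 205 to 8786 in the other WT libraries, and WT1 and dyW1 held almost no erythroid RNA, with sums of 90.6 and 14.8 against 28845 to 291249 in the other 5 libraries. The summed markers of fibroblasts and endothelial cells did not overlap between the groups. The 6 fibroblast markers summed to 4116 to 12484 normalized counts in WT and to 20348 to 28134 in dyW, and the 5 endothelial markers summed to 328 to 525 in WT and to 555 to 1258 in dyW. Of the single genes, 2 fibroblast markers and 1 endothelial marker were above WT in every dyW library, against 3.28% of all genes tested. The others overlapped, and the endothelial marker *Pecam1* went the other way. Its means were 190 in WT and 132 in dyW, a log2 fold change of −0.57. None of these 11 genes passed the thresholds used below, and *Col1a2* and *Pdgfra*, both fibroblast markers, came nearest with adjusted P-values of 0.0157 and 0.0286 in limma. The sums of the fat, immune, neural and myogenic progenitor markers overlapped between the groups. Of the other marker lists, *Plin1* (fat), *Nefl* (neural) and *Slc4a1* (erythroid) passed the thresholds as lower in dyW. All have means of 5 to 50 normalized counts, where 23.8% of all genes did so.

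Parts of the mitochondrial genome have copies in the nuclear genome, and because the authors counted uniquely mapped reads, these copies bear on which members could be measured. The longest copy lay at chr1:24650616-24655269 on the minus strand, 4654 bases with 99.936% identity to positions 6390 to 11042 of chrM. It held all of *mt-Co2*, *mt-Atp6*, *mt-Co3* and *mt-Nd3*, 63.6% of *mt-Nd4* and 31.3% of *mt-Co1*. The first 60 bases of *mt-Co2* are shown because the mitochondrial and nuclear sequences do not differ there, so that a read lying within them has no single place in the GRCm39 genome.
mt-Co2, chrM:7013-7072, plus strand: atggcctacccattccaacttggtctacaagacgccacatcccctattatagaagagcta
Nuclear copy, chr1:24654587-24654646, minus strand: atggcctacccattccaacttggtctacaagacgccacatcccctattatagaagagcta
Over its whole length the copy differed from chrM by 2 substitutions, A6393T in *mt-Co1* and T9461C in *mt-Nd3*, and by a gap of 1 base at position 9820 in a tRNA gene. Positions are counted along chrM, with the mitochondrial base first. The second substitution is shown because it was the only difference in *mt-Nd3*, near its start, and is marked by the capital letter.
mt-Nd3 start, chrM:9431-9491, plus strand: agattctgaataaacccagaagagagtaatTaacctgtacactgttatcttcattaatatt
Nuclear copy, chr1:24652168-24652228, minus strand: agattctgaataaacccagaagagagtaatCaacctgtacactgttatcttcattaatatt

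Of all windows of 100 bases inside a gene, 100% had an exact nuclear copy in *mt-Co2*, *mt-Atp6* and *mt-Co3*, 98.8% in *mt-Nd3*, 60.8% in *mt-Nd4* and 30.8% in *mt-Co1*. The share was 3.19% in *mt-Nd2*, 1.21% in *mt-Rnr2* and 0 in *mt-Rnr1*, *mt-Nd1*, *mt-Nd5*, *mt-Nd6* and *mt-Cytb*. With windows of 50 bases it was higher, at 62.2% in *mt-Nd4*, 51.1% in *mt-Co1*, 8.29% in *mt-Nd2*, 7.61% in *mt-Nd5* and 6.13% in *mt-Rnr2*. It stayed at 0 in *mt-Rnr1*, *mt-Nd1*, *mt-Nd6* and *mt-Cytb*. Across the 7 libraries together, 32 reads were counted on *mt-Co2*, a catalytic subunit gene of complex IV, 32 on *mt-Atp6*, a subunit of the proton channel of ATP synthase, and 15 on *mt-Co3*, another complex IV gene. Their neighbours outside the copy were counted in every library, with totals of 309346 reads on *mt-Nd5* and 1477220 on *mt-Nd1*. The 3613 reads of *mt-Nd3* fell on a gene in which 3 of 249 windows had no exact copy. The annotated pseudogenes inside the nuclear segment held few reads as well, 291 on *Gm28661* (opposite *mt-Co2*), 239 on *Gm29216* (*mt-Co1*), 164 on *Gm28437* (*mt-Co3*), 97 on *Gm10925* (*mt-Atp6*) and 45 each on *Gm28438* (*mt-Nd3*) and *Gm28439* (*mt-Nd4*). The counts of *mt-Co2*, *mt-Atp6* and *mt-Co3* therefore cannot be read as their RNA levels, and those of *mt-Nd3*, *mt-Nd4* and *mt-Co1* may be too low. Where along a gene its reads lay is not known from the counts. Whether reads were paired is not given in the sources used here, and the match holds for the reference genome, not for a sequence of these mice.

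**Figure D1:**
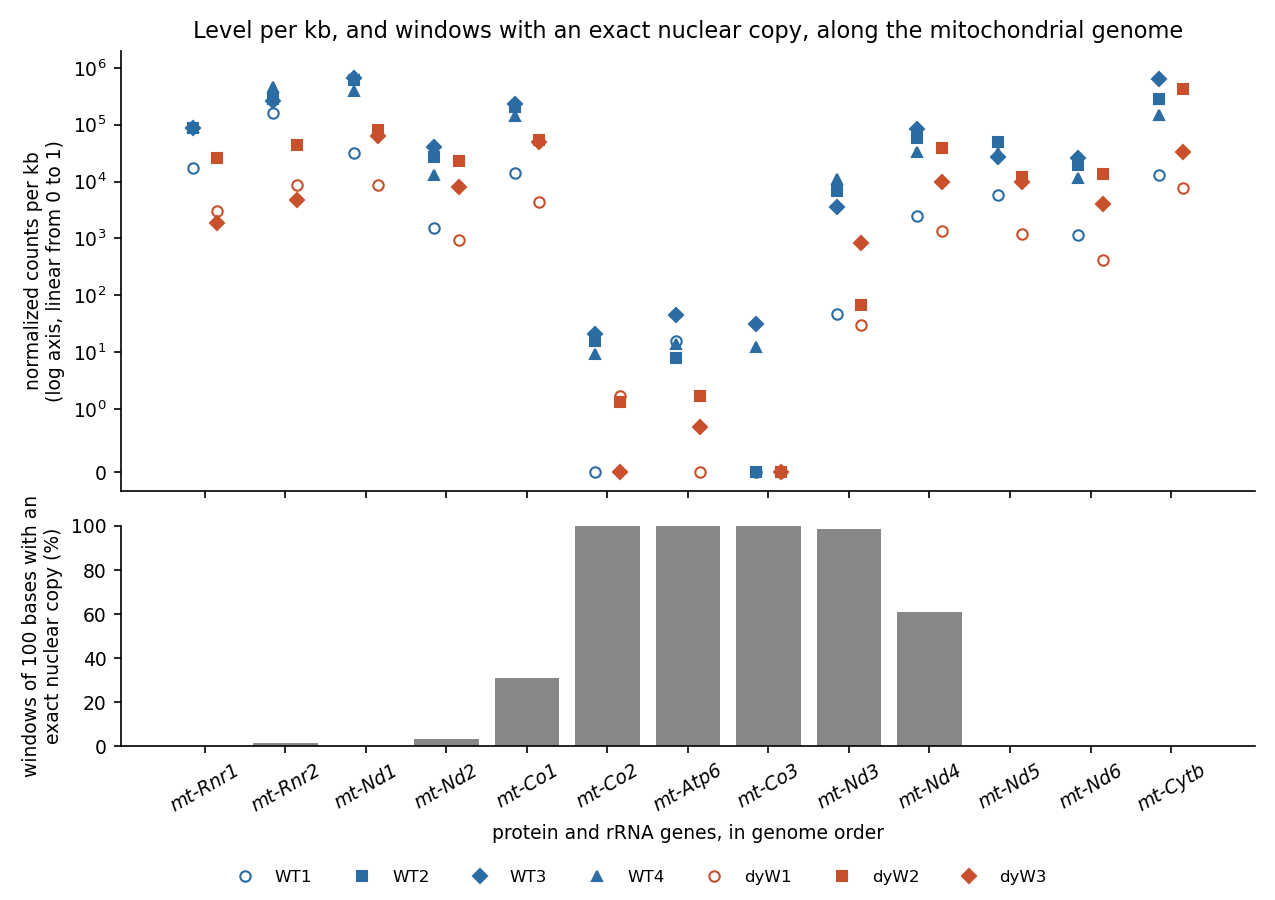
The upper panel plots normalized counts per kb of gene for 13 members in genome order, 1 point per library (blue WT, orange dyW, open circles WT1 and dyW1), on a log axis that is linear between 0 and 1. The lower panel gives the percent of 100-base windows with an exact nuclear copy: the 3 genes at 100%, *mt-Co2*, *mt-Atp6* and *mt-Co3*, are the 3 genes below 50 normalized counts per kb in every library.

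Per kb of gene, the highest member was *mt-Rnr2* in WT1, WT4 and dyW1, *mt-Nd1* in WT2, WT3 and the library labelled dyW3, and *mt-Cytb* in dyW2. The WT means per kb were 424545 ± 284825 for *mt-Nd1*, 289984 ± 127290 for *mt-Rnr2*, 266765 ± 263058 for *mt-Cytb* and 146665 ± 95823 for *mt-Co1* (SD, n = 4). They were followed by *mt-Rnr1* at 70769 ± 35864, *mt-Nd4* at 43784 ± 34099, *mt-Nd5* at 28712 ± 18235, *mt-Nd2* at 20451 ± 16903 and *mt-Nd6* at 14422 ± 10641. In every WT library *mt-Nd1* was above *mt-Co1* and *mt-Nd2* was above *mt-Nd6*, also when only windows without a nuclear copy were counted as length. Counted in that way, with *mt-Nd3* left out for its 3 windows, the highest member was *mt-Nd1* in dyW1 and *mt-Co1* in the library labelled dyW3. The other neighbours in the order of the means changed places in at least 1 WT library by one or the other length. In dyW, *mt-Cytb* led with 153625 ± 231220 per kb, ahead of *mt-Nd1* at 50913 ± 37853 and *mt-Co1* at 36467 ± 27822 (SD, n = 3). *mt-Rnr2* averaged 19170 ± 21634 per kb in dyW, below *mt-Co1* in dyW2 and the library labelled dyW3 but above it in dyW1.

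The large rRNA of the mitochondrial ribosome, the 16S rRNA encoded by *mt-Rnr2* (chrM:1094-2675, plus strand), was the 1 member that passed the thresholds. It stood at 249211, 441829, 411037 and 732945 normalized counts in WT1 to WT4. It stood at 13938 in dyW1, 69666 in dyW2 and 7379 in the library labelled dyW3. Every WT library lay above every dyW library, with means of 458755 ± 201372 (SD, n = 4) and 30328 ± 34225 (SD, n = 3). The log2 fold change was −4.47 (SE 0.69) with an adjusted P-value of 0.00372 in limma. The exact permutation P-value was 0.0571, the smallest that this test, which doubles the smaller tail, can give for 35 splits of 7 libraries. *mt-Rnr2* also separated the groups as a share of the counted reads, which does not depend on the size factors. The share was 9.93%, 11.1%, 9.02% and 13.2% in WT1 to WT4 against 0.996%, 3.01% and 0.412% in the dyW libraries. Without the library labelled dyW3 the log2 fold change was −3.78 with an adjusted P-value of 0.00419 in limma. The log2 fold change was negative in all 17 alternatives, from −5.39 to −2.06, but the call was lost in 10 of them, with adjusted P-values in limma from 0.0107 to 0.745. In 7 of these 10 no gene of the table was called lower, in 2 of them 1 or 2 genes were, and without dyW1 2090 genes were.

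The small rRNA, the 12S rRNA encoded by *mt-Rnr1* (chrM:70-1024, plus strand), lies before *mt-Rnr2* with a single tRNA gene between them. It stood at 16223, 83791, 84573 and 85750 normalized counts in WT1 to WT4, and 3 of these 4 values were within a narrow range. It stood at 2936 in dyW1, 24907 in dyW2 and 1759 in the library labelled dyW3, so that WT1 lay below dyW2 and the groups overlapped. The log2 fold change was −3.47 (SE 0.93) with an adjusted P-value of 0.02 in limma, which misses the threshold of 0.01.

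**Figure D2:**
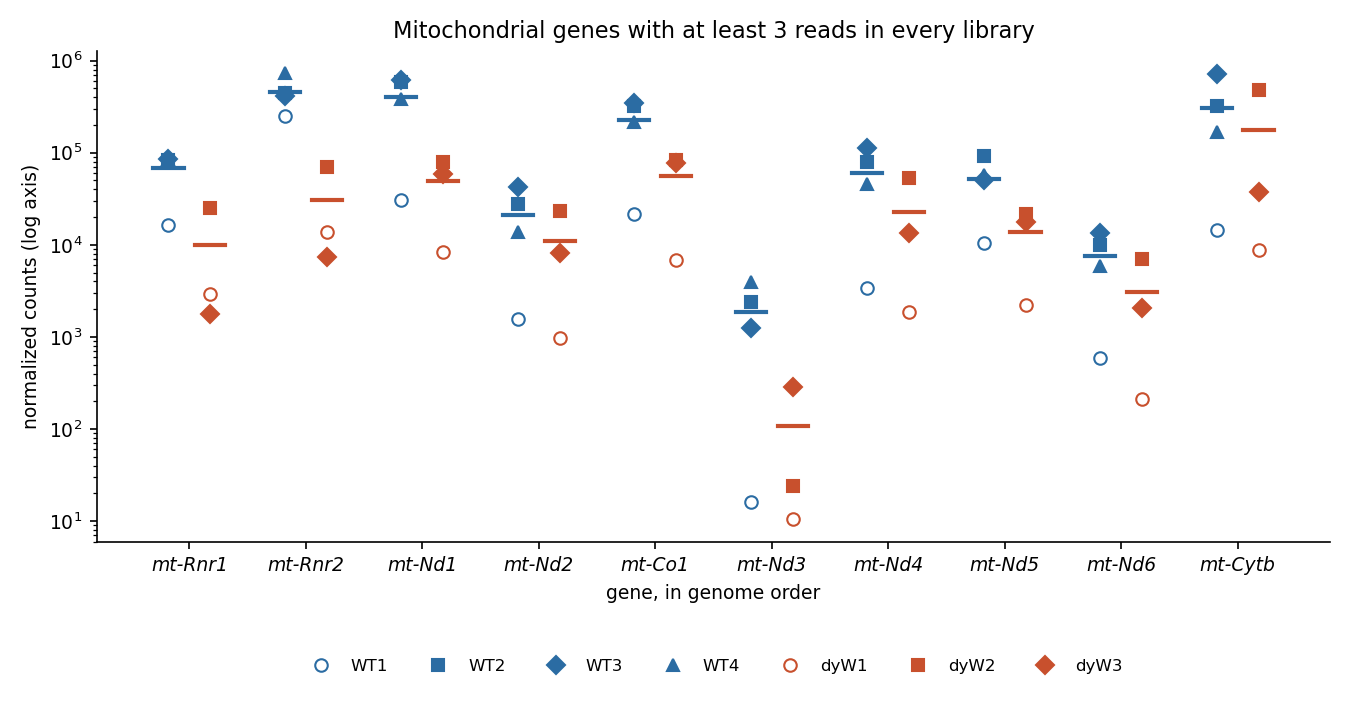
Normalized counts of the 10 members with at least 3 reads in every library, on a log axis, with 1 point per library (blue WT, orange dyW) and a bar at the mean of each group. In *mt-Rnr2* every WT point lies above every dyW point. In the other 9 genes WT1, an open blue circle, falls among the dyW points.

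Complex I, the entry point of electrons from NADH, takes 6 of the measured mRNAs. *mt-Nd1* (chrM:2751-3707) stood at 30585, 591999, 622126 and 380448 normalized counts in WT1 to WT4. It stood at 8375 in dyW1, 78449 in dyW2 and 59349 in the library labelled dyW3. WT2, WT3 and WT4 lay above all dyW libraries and WT1 lay among them. The log2 fold change was −2.92 (SE 1.13) with an adjusted P-value of 0.0780 in limma. *mt-Nd5*, another membrane subunit (chrM:11742-13565), stood at 10364, 91363, 50060 and 57692 in WT and at 2216, 21716 and 17745 in dyW. WT1 again lay among the dyW libraries and the other WT libraries above them. Its log2 fold change was −2.10 (SE 0.92) with an adjusted P-value of 0.111 in limma.

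In *mt-Nd2*, *mt-Nd4* and *mt-Nd6* the library dyW2 reached into the range of the higher WT libraries. *mt-Nd2* (chrM:3914-4951) stood at 1551, 27590, 42154 and 13615 in WT against 962, 23550 and 8247 in dyW. *mt-Nd4* (chrM:10167-11544) stood at 3423, 78975, 113416 and 45521 in WT against 1861, 52727 and 13415 in dyW. The groups overlapped in both, and their log2 fold changes were −1.13 (SE 1.29) and −1.65 (SE 1.36) with adjusted P-values of 0.532 and 0.381 in limma. *mt-Nd6* (chrM:13552-14070) is the protein gene that lies on the minus strand, and it overlaps the end of *mt-Nd5* on the plus strand. It stood at 586, 10032, 13399 and 5922 in WT against 213, 6980 and 2051 in dyW, a log2 fold change of −1.68 (SE 1.33) with an adjusted P-value of 0.364 in limma. The libraries, made by SMART-seq2 and Nextera, keep no record of the strand, so reads of *mt-Nd6* cannot be told apart from antisense reads.

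*mt-Nd3* (chrM:9459-9806), the shortest complex I member measured, is almost wholly inside the nuclear copy. It stood at 16, 2368, 1235 and 3914 normalized counts in WT1 to WT4, and at 10.4 in dyW1, 23.8 in dyW2 and 289 in the library labelled dyW3. WT1 held 3 reads of it and WT4 held 1244, so the lowest value in WT rests on few reads. The library labelled dyW3 was the highest dyW library here, whereas dyW2 was the highest in every other protein gene that all libraries held. The log2 fold change was −3.93 (SE 1.88) with an adjusted P-value of 0.140 in limma.

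Complex III is represented by *mt-Cytb* (chrM:14145-15288), which encodes cytochrome b, and complex IV by *mt-Co1* (chrM:5328-6872), which encodes its main catalytic subunit. *mt-Cytb* stood at 14639, 325489, 714477 and 166110 in WT, and at 8814 in dyW1, 480728 in dyW2 and 37698 in the library labelled dyW3. The value of dyW2 was exceeded by WT3 alone, and *mt-Cytb* took 20.8% of all counted reads in dyW2. *mt-Co1* stood at 21884, 318162, 350476 and 215867 in WT against 6829, 84101 and 78095 in dyW, again with WT1 among the dyW libraries. The log2 fold changes were −1.51 (SE 1.52) for *mt-Cytb* and −2.09 (SE 1.14) for *mt-Co1*, with adjusted P-values of 0.475 and 0.189 in limma. Without dyW1 they were −0.20 and −0.90, and without dyW2 −3.08 and −2.71. WT1 and dyW1 were the lowest libraries of their groups in *mt-Nd1*, *mt-Nd5* and *mt-Co1*, and WT1 was the library that made the groups overlap there. Of the 3 genes that lie wholly inside the nuclear copy, *mt-Atp6* held 2, 2, 15 and 3 reads in WT and 0, 9 and 1 in dyW. Its groups did not overlap in normalized counts, and its log2 fold change of −3.09 with an adjusted P-value of 0.0144 in limma rests on these reads. *mt-Co2* and *mt-Co3*, with at most 12 reads in any library, had means under 5 normalized counts and were not tested.

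The tRNA members were near the limit of the measurement. *mt-Tp*, the proline tRNA, *mt-Tq*, the glutamine tRNA, and *mt-Tc*, the cysteine tRNA, all lie on the minus strand. As for *mt-Nd6*, their reads cannot be told apart from antisense reads. The sequences of *mt-Tp* and *mt-Tq* are shown because these were the tRNAs that passed the filter on low counts.
mt-Tp, chrM:15356-15422, minus strand: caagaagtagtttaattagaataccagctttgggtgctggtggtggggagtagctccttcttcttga
mt-Tq, chrM:3772-3842, minus strand: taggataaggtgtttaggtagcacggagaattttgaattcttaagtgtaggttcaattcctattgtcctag
*mt-Tp* stood at 0, 67.4, 164 and 37.8 normalized counts in WT1 to WT4 and at 2.14, 183 and 22.0 in dyW1, dyW2 and the library labelled dyW3. *mt-Tq* stood at 0, 13.5, 10.3 and 22.0 in WT and at 0.0974, 58.2 and 7.33 in dyW. In both genes dyW2 held the highest value, and the 0 in WT1 allows up to 3 reads, or 16 normalized counts. The log2 fold changes of −0.12 (SE 1.89) and 0.06 (SE 1.52) had adjusted P-values of 0.967 and 0.981 in limma. *mt-Tc* held 1 read in WT4, 10 in dyW2 and 2 in the library labelled dyW3, and none in the other 4 libraries.

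Of the 13 members tested, 12 had a negative and 1 a positive log2 fold change, and 1 was called lower in dyW, a call being a log2 fold change beyond 1.5 in size with an adjusted P-value under 0.01. Over the 25791 genes of the fit the same rule called 18.7% lower and 0.0659% higher, against 1 of 13 members. At an adjusted P-value under 0.05, 3 members were lower (*mt-Rnr2*, *mt-Rnr1* and *mt-Atp6*), against 29.6% of all genes. Of these, *mt-Atp6* lies inside the nuclear copy and held few reads, so its counts cannot be read as its RNA level. The groups did not overlap in 2 of the 16 members, *mt-Rnr2* and *mt-Atp6*, whereas every WT library lay above every dyW library in 31.5% of all genes tested. In no member did every WT library lie below every dyW library, against 3.28% of all genes. Without the library labelled dyW3, *mt-Rnr2* was again the 1 member called lower, against 25.8% of all genes. The median log2 fold change was −2.09 over the 13 members and −1.99 over all genes. Calls were most frequent among genes of low count, at 23.8% of those with a mean of 5 to 50, so the abundant genes form a closer background. Among the 106 genes with a mean of at least 1000 normalized counts, 3.77% were called lower, which is 1 of the 10 members in that class and 3 of the other 96 genes. The groups did not overlap, with WT above dyW, in 10.4% of the 106. The median log2 fold change was −2.10 over the 10 members in that class and −0.49 over the other 96 genes. The median of the 10 was −0.98 without dyW1, −2.95 without dyW2, −0.95 with the same total in all libraries and −0.61 with quantile normalization.

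**Figure D3:**
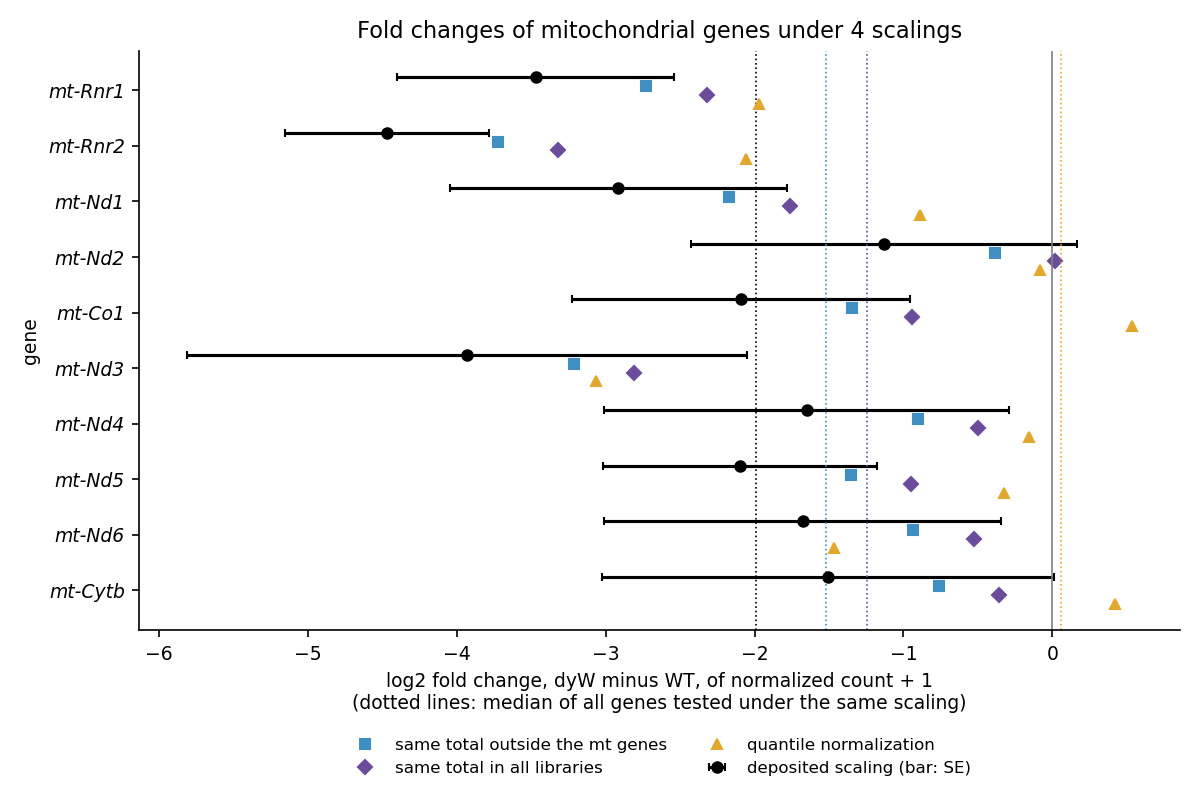
Log2 fold changes of 10 members under the deposited scaling (black, bars are SE) and under 3 other scalings, with dotted lines at the median of all genes tested under the same scaling. *mt-Rnr1*, *mt-Rnr2*, *mt-Nd1* and *mt-Nd3* lie below the median of all genes under each of the 4 scalings. *mt-Co1* and *mt-Cytb* are above 0 with quantile normalization, and *mt-Nd2* is above 0 with the same total in all libraries.

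Together the members took 13.9%, 49.5%, 52.8% and 30.8% of the counted reads in WT1 to WT4, and 3.30%, 36.4% and 12.6% in dyW1, dyW2 and the library labelled dyW3. The group means were 36.7% ± 18.1 (SD, n = 4) and 17.5% ± 17.1 (SD, n = 3), and the groups overlapped. In every library 3 to 8 of the 10 most abundant genes were mitochondrial. WT1 and dyW1, the libraries with almost no erythroid RNA and, respectively, with much cartilage RNA and little myofiber RNA, had the lowest mitochondrial share of their groups, and the fibroblast and endothelial sums were higher in every dyW library than in every WT library. The part of these markers in the share was not tested. In bulk RNA, fewer cells of a type and less RNA per cell cannot be told apart. The difference of the means was −19.3 percentage points, and it ran from −28.8 without dyW2 to −12.2 without dyW1 when 1 library was left out. It was −11.8 with the rRNA genes left out and −28.4 with the 18S rRNA and the nuclear copies left out of the total, and −19.8 without WT1 and dyW1.

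Both rRNA genes together took 10.6%, 13.2%, 10.9% and 14.8% of the counted reads in WT1 to WT4, and 1.21%, 4.09% and 0.511% in the dyW libraries. The share of the protein genes varied far more within WT, at 3.31%, 36.3%, 41.9% and 16%, and stood at 2.09%, 32.3% and 12.1% in dyW. The groups did not overlap in the rRNA share, which is mostly *mt-Rnr2* since *mt-Rnr1* took 0.646% to 2.10% in WT and 0.0983% to 1.08% in dyW. They overlapped in the mRNA share. The rRNAs made up 76.2% of the mitochondrial reads in WT1 and 4.04% in the library labelled dyW3, with 26.7%, 20.6% and 47.9% in WT2 to WT4 and 36.6% and 11.2% in dyW1 and dyW2, so that the groups overlapped in this proportion.

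The cytoplasmic 18S rRNA, which is made in the nucleolus and carries no poly(A) tail, is given beside these shares. Its gene *Rn18s-rs5* took 9.67%, 12.8%, 4.78% and 45.1% of the counted reads in WT1 to WT4 and 4.76%, 0.0461% and 0.482% in the dyW libraries. Every WT library lay above every dyW library, although WT3 and dyW1 differed by little. Its log2 fold change was −5.90 (SE 1.31) with an adjusted P-value of 0.00873 in limma. Its share moved with that of the mitochondrial rRNAs between the groups, and its part in their difference was not tested. Within libraries the proportion was not fixed, since the log2 ratio of *mt-Rnr2* to 18S reads ran from −2.26 in dyW1 to 6.03 in dyW2.

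**Figure D4:**
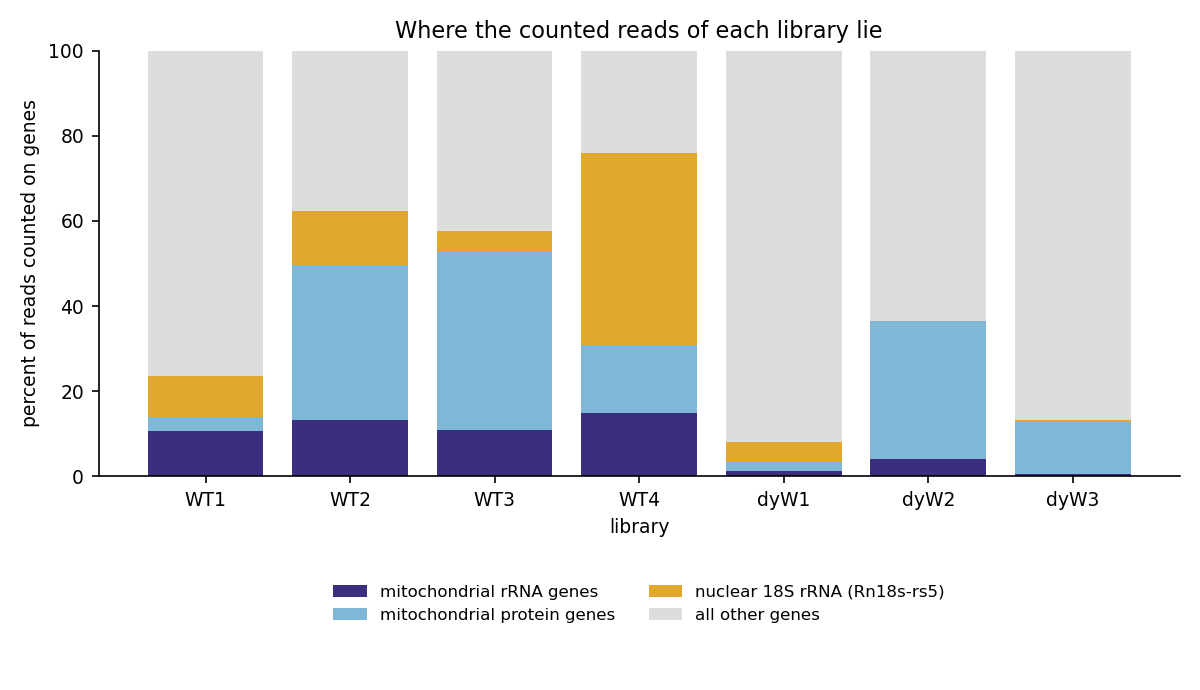
Stacked bars of the percent of counted reads in each library on the mitochondrial rRNA genes, the mitochondrial protein genes, the nuclear 18S rRNA gene and all other genes. The dark rRNA segment is 10.6% to 14.8% in the WT libraries and 0.511% to 4.09% in the dyW libraries, whereas the light segment of the protein genes overlaps between the groups.

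The ratio of *mt-Rnr2* to *mt-Rnr1* compares the rRNAs within each library. It was 15.4, 5.27, 4.86 and 8.55 in WT1 to WT4, and 4.75, 2.80 and 4.20 in dyW1, dyW2 and the library labelled dyW3. Every WT library lay above every dyW library, with WT3 at 4.86 next to dyW1 at 4.75. In WT the log2 ratio averaged 2.93 ± 0.76 (SD, n = 4), and in dyW it averaged 1.93 ± 0.40 (SD, n = 3). The difference of −0.996 had an exact two-sided permutation P-value of 0.0571, the smallest possible here. Without WT1, which had the highest ratio, the difference was −0.66 (exact permutation P-value 0.1, the smallest for 6 libraries). Among ratios of 2 genes with at least 100 reads in every library, 17.6% did not overlap between the groups.

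The make-up of the mitochondrial mRNA is free of the scaling between libraries as well. *mt-Nd1* took 36.8%, 40.9%, 32.6% and 42.8% of the reads on the 11 protein genes in WT1 to WT4, and 28.6%, 10.5% and 27.4% in dyW. *mt-Nd2* took 1.87%, 1.91%, 2.21% and 1.53% in WT, and 3.29%, 3.15% and 3.80% in dyW. The WT libraries were thus all above the dyW libraries for *mt-Nd1* and all below them for *mt-Nd2*. *mt-Nd4*, at 4.12% to 5.95% in WT and 6.19% to 7.05% in dyW, and *mt-Nd6*, at 0.666% to 0.706% in WT and 0.729% to 0.945% in dyW, were also below. Each of these 4 shares had an exact permutation P-value of 0.0571, or 0.1 after Benjamini-Hochberg adjustment over the 7 protein genes with at least 100 reads in every library. The shares are parts of 1 total, so a lower share of *mt-Nd1* raises the others, and the 4 separations are not independent. How often such shares separate the groups among other genes was not computed. The shares of *mt-Co1*, *mt-Nd5* and *mt-Cytb* overlapped. *mt-Cytb* ran from 17.4% in the library labelled dyW3 to 64.2% in dyW2, and with it left out of the total, an alternative chosen after seeing the data, *mt-Nd1* and *mt-Nd2* still separated the groups and *mt-Nd4* and *mt-Nd6* did not.

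Pairs of members differed in how closely they kept to 1 ratio across libraries. The genes *mt-Nd4* and *mt-Nd6* lie on opposite strands, but the strand of their reads is not known. Their pair was the steadiest of the 21 among these 7 mRNAs. Its ratio stayed between 5.84 and 8.72 in the 7 libraries, an SD of 0.21 on the log2 scale, although *mt-Nd4* itself ranged from 1861 to 113416 normalized counts. *mt-Nd2* to *mt-Nd6* followed, with 2.30 to 3.15 in WT and 3.37 to 4.51 in dyW. The median SD of the log2 ratio was 0.72 over the 21 pairs of mRNAs, 0.79 for the rRNA pair and 1.84 over the 14 pairs of an rRNA with an mRNA. Over the 1378 pairs of the 53 genes with at least 100 reads in every library it was 1.82. The groups did not overlap in 5 of the 21 mRNA ratios, and 4 of these 5 hold *mt-Nd1*. Among them was *mt-Nd1* to *mt-Co1* with 1.40 to 1.86 in WT and 0.760 to 1.23 in dyW. For pairs of all 53 genes the share that did not overlap was the 17.6% given above.

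The respiratory complexes are completed by subunits encoded in the nucleus, of which 79 were in the table. None of the 79 was called in either direction, and their median log2 fold change was 0.67. Of the 79, 72 had a mean of 50 to 1000 normalized counts, with a median of 0.68, and the 6005 genes tested in that class had a median of 0.21 with 2.43% called lower. By complex the medians were 0.69 for 38 subunits of complex I, 0.87 for 4 of complex II, 0.67 for 9 of complex III, 0.57 for 13 of complex IV and 0.32 for 15 of ATP synthase. The sum of the 79 was 4377, 10819, 43734 and 10982 normalized counts in WT1 to WT4 and 6171, 46837 and 18753 in dyW1, dyW2 and the library labelled dyW3, so that WT3 and dyW2 were high and the groups overlapped. Reads on the mitochondrial protein genes outnumbered reads on these nuclear subunits by 19.0, 134, 43.6 and 81.0 to 1 in WT1 to WT4, and by 4.74, 16 and 11.6 to 1 in the dyW libraries. WT1, at 19.0, was nearest to dyW2, at 16, and every WT library lay above every dyW library. Of ratios of 2 well-counted genes 17.6% did not overlap, and no such share was computed for ratios of sums. The 96 other genes with a mean of at least 1000 had a median log2 fold change of −0.49, below the 0.21 of the class that holds most nuclear subunits. Complex II is the respiratory complex without a subunit in the mitochondrial genome.

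The nuclear genes that copy, transcribe and process the mitochondrial genome were compared in the same fit. Of 61 such genes, 3 were called lower in dyW and none higher, and the median log2 fold change was −0.96. All 3 act on mitochondrial RNA after it is made. *Trub2* and *Rpusd4* encode pseudouridine synthases, and *Gtpbp3* takes part in modifying the wobble base of tRNAs. *Trub2* stood at 90.6, 53.9, 43.1 and 88.1 normalized counts in WT and at 0, 5.94 and 0 in dyW, a log2 fold change of −5.13 (SE 0.88) with an adjusted P-value of 0.0041 in limma. *Rpusd4* stood at 32.0, 10.8, 10.3 and 31.5 in WT and at 0.487, 0 and 0 in dyW, with a log2 fold change of −4.09 (SE 0.74). *Gtpbp3* stood at 26.7, 45.8, 28.7 and 34.6 in WT and at 0, 5.06 and 0 in dyW, with a log2 fold change of −4.23 (SE 0.85). The 3 called genes were among the 44 with a mean of 5 to 50, where 23.8% of all genes were called lower, and a fold change on this scale depends on the added count of 1 where a library is at 0.

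The 20 genes of rRNA and tRNA modification had a median log2 fold change of −1.25, the 11 of DNA replication −1.22, the 11 of RNA cleavage −0.94, the 9 of RNA stability −0.13 and the 10 of transcription 0.11. *Polrmt*, the mitochondrial RNA polymerase, stood at 48.0, 40.5, 14.4 and 47.2 in WT and at 6.63, 5.82 and 3.42 in dyW. Its groups did not overlap, and its log2 fold change of −2.52 (SE 0.72) had an adjusted P-value of 0.0273 in limma, which misses the threshold. *Tfam*, which packs mitochondrial DNA and starts its transcription, stood at 16, 37.8, 39 and 25.2 in WT and at 19.2, 133 and 6.84 in dyW, with overlapping groups and a log2 fold change of −0.06. *Lrpprc*, which stabilises mitochondrial mRNAs, ranged from 36.9 to 97.1 in WT and from 58.2 to 67.3 in dyW, with a log2 fold change of −0.13 (SE 0.60). Its partner gene *Slirp* was not analysed here. *Polg*, the catalytic subunit of the mitochondrial DNA polymerase, and *Twnk*, its helicase, had log2 fold changes of −1.45 (SE 0.75) and −1.22 (SE 0.76) with adjusted P-values of 0.169 and 0.250 in limma.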

How the data were processed

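RNA of E17.5 epaxial muscle fibers was measured in 7 libraries, 4 WT and 3 dyW, each from its own mouse. The authors trimmed the reads (Cutadapt), aligned them with RNA STAR to GRCm39, counted those that mapped uniquely per gene (FeatureCounts) and scaled the counts with DESeq2. The deposited values are these normalized counts, recorded as a score because they are scaled and written with decimal commas. Tool versions, annotation release and strand setting are not given in the sources used here. A deposited table of fold changes and P-values from the authors' comparison was not used.

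Deposited values of low and moderate count were whole multiples of what 1 read is worth in their library (100% within a tolerance of 0.05 reads). Reads were therefore recovered for all genes, although high counts were not checked in this way. Genes with a mean of at least 5 entered a limma fit (version 3.58.1, under R 4.3.3) of log2(normalized count + 1), with a moderated variance that follows the mean. P-values were adjusted over all 25791 genes by Benjamini-Hochberg. Fold changes on this scale understate those of low genes. Exact permutation tests, two-sided by doubling the smaller tail and over all 35 splits, were used for single values. The planned count tests were replaced by voom on the recovered reads because the deposited values were recorded as a score. Voom scaled by the total reads of each library and not by the deposited size factors. Identifiers were matched to GENCODE release 39 (99.2% of genes), and chrM (16299 bases) was aligned to the nuclear genome by megablast with a word size of 28. The fit was tested on simulated data. Other steps ran in Python 3.11.15 with scipy 1.17.1, pandas 2.3.3 and numpy 2.4.6, and figures were drawn by matplotlib 3.10.9.

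All members are accounted for, with values for the protein and rRNA genes and for tRNA genes past the filter. Of the machinery lists, called genes and Polrmt, Tfam, Lrpprc, Slirp, Polg and Twnk are named. The members, lists and rules were chosen with earlier results of these data known. As alternatives, the pseudocount was set to 0.1 or 10, the minimum mean was dropped or raised to 50, the scaling was changed in 3 ways, the replicate number was used as a block, the adjusted P-value threshold was set to 0.05, and each library was left out. Voom and the fit without WT1 and dyW1 were added after seeing the data. Depth ranged from 470804 to 18297106 reads on genes, and a count of 0 allows up to 3 reads.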

Additional observations from a re-analysis of the deposited data

Results flagged for a closer look

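In the WT group, 4 of 25 values had 1 library whose gap to the nearest other library exceeded Dixon's 95% critical value for 4 samples, which chance gives in about 1 of 20 groups. mt-Rnr1 was low in WT1, at 16223 normalized counts against 83791 to 85750 in the other WT libraries. The 18S rRNA was high in WT4, at 2498350 normalized counts, and the summed nuclear respiratory subunits were high in WT3, at 43734. mt-Tc stood at 3.15 normalized counts in WT4, which is 1 read, and at 0 in the other WT libraries.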

How the results depend on the processing

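The log2 fold changes of mt-Rnr1, mt-Rnr2, mt-Nd1, mt-Nd3, mt-Nd4, mt-Nd5 and mt-Nd6 were negative under all alternatives run. The count of members called lower (1) fell to 0 with a pseudocount of 10, a mean of at least 50, the same total in all libraries, quantile normalization and without WT1 and dyW1, was 3 at an adjusted P-value under 0.05, and ran from 0 to 1 with a library left out (0 without WT2, WT4, dyW1 or dyW2). No gene of the whole table was called lower under the first 3 of these settings, without WT1 and dyW1, or without WT2, WT4 or dyW2, and 2 genes were with quantile normalization. The count of machinery genes called lower (3) was 0 under the same 5 settings and with the replicate block, 1 with voom and 11 of 61 at an adjusted P-value under 0.05 (29.6% of all genes), and ran from 0 to 4 with a library left out (0 without WT2, WT4 or dyW2, 1 without WT1). Scalings moved the median of all genes from −1.99 to −1.52 (same total outside the mitochondrial genes), −1.24 (same total) and 0.06 (quantile). The replicate numbers did not pair the samples (correlations of 0.147, −0.0494 and −0.0880), and the replicate block, a fit that WT4 cannot inform, gave mt-Rnr2 −4.21 (adjusted P-value 0.0614 in limma), mt-Co1 −1.92 (0.00392, the 1 gene called in the whole table) and a difference of −0.94 in the log2 ratio of mt-Rnr2 to mt-Rnr1 (exact permutation P-value 0.250). Sign changes were seen for mt-Co1 (0.54), mt-Cytb (0.42) and mt-Atp6 (0.28) with quantile normalization, and for mt-Nd2 with the same total (0.019). mt-Tp turned positive with a pseudocount of 0.1 (0.54), the same total (1.0), the same total outside the mitochondrial genes (0.54), quantile normalization (0.088), the block (0.077) and voom (0.36). With a library left out, mt-Nd4 ran from −2.78 to −0.37, mt-Nd6 from −2.81 to −0.30, mt-Nd5 from −2.76 to −1.05, mt-Nd1 from −3.94 to −1.91, mt-Co1 from −3.02 to −0.90 and mt-Cytb from −3.08 to −0.20, each nearest 0 without dyW1. In the same way mt-Nd2 ran from −2.15 to 0.15, mt-Tq from −1.37 to 1.5 and mt-Tp from −1.68 to 1.34. The causes were not tested. The count tests planned at first (edgeR and DESeq2) were not run. Low counts in WT, where a read is worth 2.05 to 5.33 normalized counts, limit the tRNAs and the genes inside the nuclear copy.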
